A study of Homo sapiens with 4 samples.

Results

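The T-box transcription factor genes examined here were *TBX1*, *TBX2*, *TBX3*, *TBX4*, *TBX5*, *TBX15*, *TBX18*, *TBX20*, *TBXT*, and *EOMES*, which are 10 of the 20046 protein-coding genes placed on hg38. The rule names the genes and uses no measured value, but they were chosen with earlier results of these data known. Another 7 T-box genes were not among them. The peaks assigned to a gene were those that overlapped its body or the 20 kb on either side of it, and a promoter peak was one whose centre lay from 1000 bp upstream to 100 bp downstream of any of the gene’s transcription start sites in GENCODE 44. By this rule the 10 genes held 26 of the 15141 SS18::SSX peaks with DMSO, 4 of the 1175 SS18::SSX peaks with MS67, 40 of the 35605 WDR5 peaks with DMSO, and 8 of the 14123 WDR5 peaks with MS67. The 4 lists came from CUT&RUN, in which a nuclease tethered to an antibody frees the chromatin near its target and the fragments are sequenced. All were from HSSY II, a synovial sarcoma line that carries the SS18::SSX1 fusion, and the cells had been kept for 4 days with the solvent DMSO or with 2.5 μM MS67, a PROTAC that brings WDR5 to an E3 ubiquitin ligase for degradation. Each library was made from 1000000 HSSY II cells with 50000 murine NIH-3T3 cells that carry H2B-GFP added as a spike-in, and the SS18::SSX libraries also received an anti-GFP antibody for those cells. The design is limited to 1 line and 1 library per target and treatment, so no difference had a replicate check, no p-value was computed, and the intervals below cover counting error only. Peak lists hold no transcript levels, so the identity of the cells could not be checked against marker genes, and a peak at a T-box gene says nothing here of whether the gene was transcribed.

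T-box proteins share a DNA-binding domain, the T-box, and direct the formation of mesoderm, heart, limb, and other tissues in the embryo, some as activators and others as repressors. Genes of this kind are marked by Polycomb complexes in most adult cells and have CpG-rich start sites. In synovial sarcoma, the SS18::SSX fusion replaces SS18 in SWI/SNF remodeling complexes and draws them to Polycomb-marked chromatin. WDR5 is a scaffold subunit of the KMT2/MLL histone methyltransferases, which act at promoters and enhancers of active and developmental genes.

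Of the 10 sites that were called with DMSO and again with MS67, 6 are shown first, because the comparison of the treatments turns on such sites. They are the 3 for SS18::SSX and, of the 7 for WDR5, that at *EOMES* and 1 each in the *TBX1* gene and the *TBX20* window, which differ in their CpG number. Each sequence is hg38, plus strand, and holds the bases common to both peaks, up to 300 bases. At *TBX4*, *TBX1*, and the SS18::SSX site of *EOMES*, neither summit lay in these common bases. There the printed sequence, with its CpG number, is of overlapping flanks and not of a summit. Capitals mark a match, on either strand, to CCAAT (the motif of NFY), GGGCGG (SP/KLF), or CACGTG (an E-box), and a sequence without capitals holds none of them.
*TBX4* SS18::SSX, in an intron, chr17:61452892-61452978: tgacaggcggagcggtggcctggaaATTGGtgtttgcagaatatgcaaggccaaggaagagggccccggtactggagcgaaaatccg
*TBXT* SS18::SSX, upstream of the start site, chr6:166169463-166169685: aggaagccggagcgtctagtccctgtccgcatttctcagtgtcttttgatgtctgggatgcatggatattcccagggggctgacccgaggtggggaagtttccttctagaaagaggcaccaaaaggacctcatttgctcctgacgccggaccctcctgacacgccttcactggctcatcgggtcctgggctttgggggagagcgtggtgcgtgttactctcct
*EOMES* SS18::SSX, beyond the 3′ end, chr3:27714743-27714889: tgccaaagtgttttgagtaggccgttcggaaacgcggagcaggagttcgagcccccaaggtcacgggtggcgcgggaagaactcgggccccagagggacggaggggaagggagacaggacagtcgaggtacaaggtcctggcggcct
*EOMES* WDR5, beyond the 3′ end, chr3:27715208-27715507: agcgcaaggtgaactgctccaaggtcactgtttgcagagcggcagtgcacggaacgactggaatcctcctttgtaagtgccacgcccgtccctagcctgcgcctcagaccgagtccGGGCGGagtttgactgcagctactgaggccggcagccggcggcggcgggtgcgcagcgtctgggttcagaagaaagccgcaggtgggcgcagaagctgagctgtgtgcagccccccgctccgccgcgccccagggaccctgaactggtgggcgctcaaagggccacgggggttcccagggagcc
*TBX1* WDR5, in an intron, chr22:19758276-19758381: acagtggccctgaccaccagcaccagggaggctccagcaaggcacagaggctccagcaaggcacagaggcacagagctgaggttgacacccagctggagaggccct
*TBX20* window WDR5, at a neighbouring long noncoding RNA gene, chr7:35186864-35187063: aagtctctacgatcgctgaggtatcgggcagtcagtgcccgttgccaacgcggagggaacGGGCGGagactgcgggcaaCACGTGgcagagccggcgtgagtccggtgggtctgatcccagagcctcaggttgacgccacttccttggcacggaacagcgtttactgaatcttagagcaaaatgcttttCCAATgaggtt
CpG number varied among the sites of both targets. For WDR5 it was 25 in 300 bp at *EOMES*, 16 in 200 bp in the *TBX20* window, and 0 in 106 bp at *TBX1*, and for SS18::SSX it was 12 in 147 bp at *EOMES*, 10 in 223 bp at *TBXT*, and 5 in 87 bp at *TBX4*. The WDR5 sites not shown held 2 in 92 bp at *TBX1*, 3 in 40 bp at *TBX18*, and 14 in 177 bp and 17 in 209 bp at *TBX20*.

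The depth of the 4 libraries was not the same. The fold enrichment and the p-value of a peak together fix the number of fragments at its summit and its local background, and the lowest background of a list gives the genome-wide coverage. That coverage was 0.541 fragments per bp for SS18::SSX with DMSO and 0.737 with MS67, a ratio of 1.36. For WDR5 it was 0.368 with DMSO and 0.168 with MS67, a ratio of 0.458, so the WDR5 MS67 library was the shallowest and had the least power to call a peak. Spike-in–scaled signals were not analysed here.

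In DMSO-treated cells, SS18::SSX peaks lay at 7 of the 10 T-box genes and WDR5 peaks at 9. *TBX4* had the most SS18::SSX peaks and *EOMES* the most WDR5 peaks, whereas *TBX5*, which patterns the forelimb and heart, had no peak in any of the 4 lists. Of all protein-coding genes, 37.1% had an SS18::SSX peak in the same window with DMSO and 79.1% a WDR5 peak. The members’ SS18::SSX count, 7 of 10, was above the share of all genes, and their WDR5 count, 9 of 10, was close to it. Neither count was tested, and 10 genes chosen with earlier results known are too few to read an enrichment from. Over the 10 genes the median was 2.5 SS18::SSX peaks and 4 WDR5 peaks per gene, against 0 and 2 over all protein-coding genes. Windows ran from 46763 bp at *EOMES* to 146511 bp at *TBX15*, with a median of 69799 bp against 67424 bp over all genes.

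The 10 genes spread widely in SS18::SSX. By length covered with DMSO the order was *TBX4* with 2718 bp, *TBXT* with 2199 bp, *EOMES* with 1863 bp, *TBX2* with 1068 bp, *TBX3* with 579 bp, *TBX20* with 541 bp, and *TBX18* with 381 bp, and with 1 library no neighbours in this order could be told apart from one another by a replicate. Among 20046 genes, *TBX4* ranked 400, *TBXT* 543, and *EOMES* 663 by this length. In peak number the order was *TBX4* with 6, *TBX2* and *EOMES* with 5 each, *TBXT* and *TBX3* with 3 each, and *TBX18* and *TBX20* with 2 each. No SS18::SSX peak was listed at *TBX1*, *TBX5*, or *TBX15* with either treatment.

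**Figure D1:**
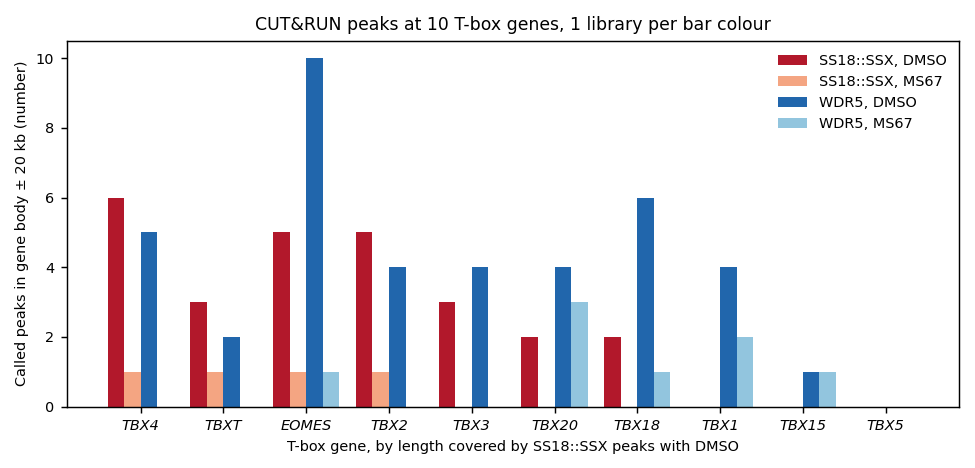
Number of called peaks in the gene body plus 20 kb on either side (y axis) for each of the 10 T-box genes (x axis, ordered by the length covered by SS18::SSX peaks with DMSO), with 1 bar per library. *TBX4* has 6 SS18::SSX peaks with DMSO and 1 with MS67, *EOMES* has 10 WDR5 peaks with DMSO and 1 with MS67, and *TBX5* has none.

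At promoters the picture was narrower. SS18::SSX promoter peaks were found with DMSO at *TBX4*, *TBXT*, and *EOMES* (3 of 10, against 13.4% of all genes), and WDR5 promoter peaks at *TBX1*, *TBX4*, *TBX20*, and *TBXT* (4 of 10, against 42.9%). Both targets had a promoter peak at *TBX4* and *TBXT* (2 of 10, against 9.33%). The pair overlapped at *TBXT* and did not overlap at *TBX4*, where WDR5 lay at the upstream start site and SS18::SSX at start sites farther inside the gene. With MS67, an SS18::SSX promoter peak was listed at *TBXT* alone (1 of 10, against 0.723%), and WDR5 promoter peaks at *TBX1* and *TBX20* (2 of 10, against 27.7%).

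**Figure D2:**
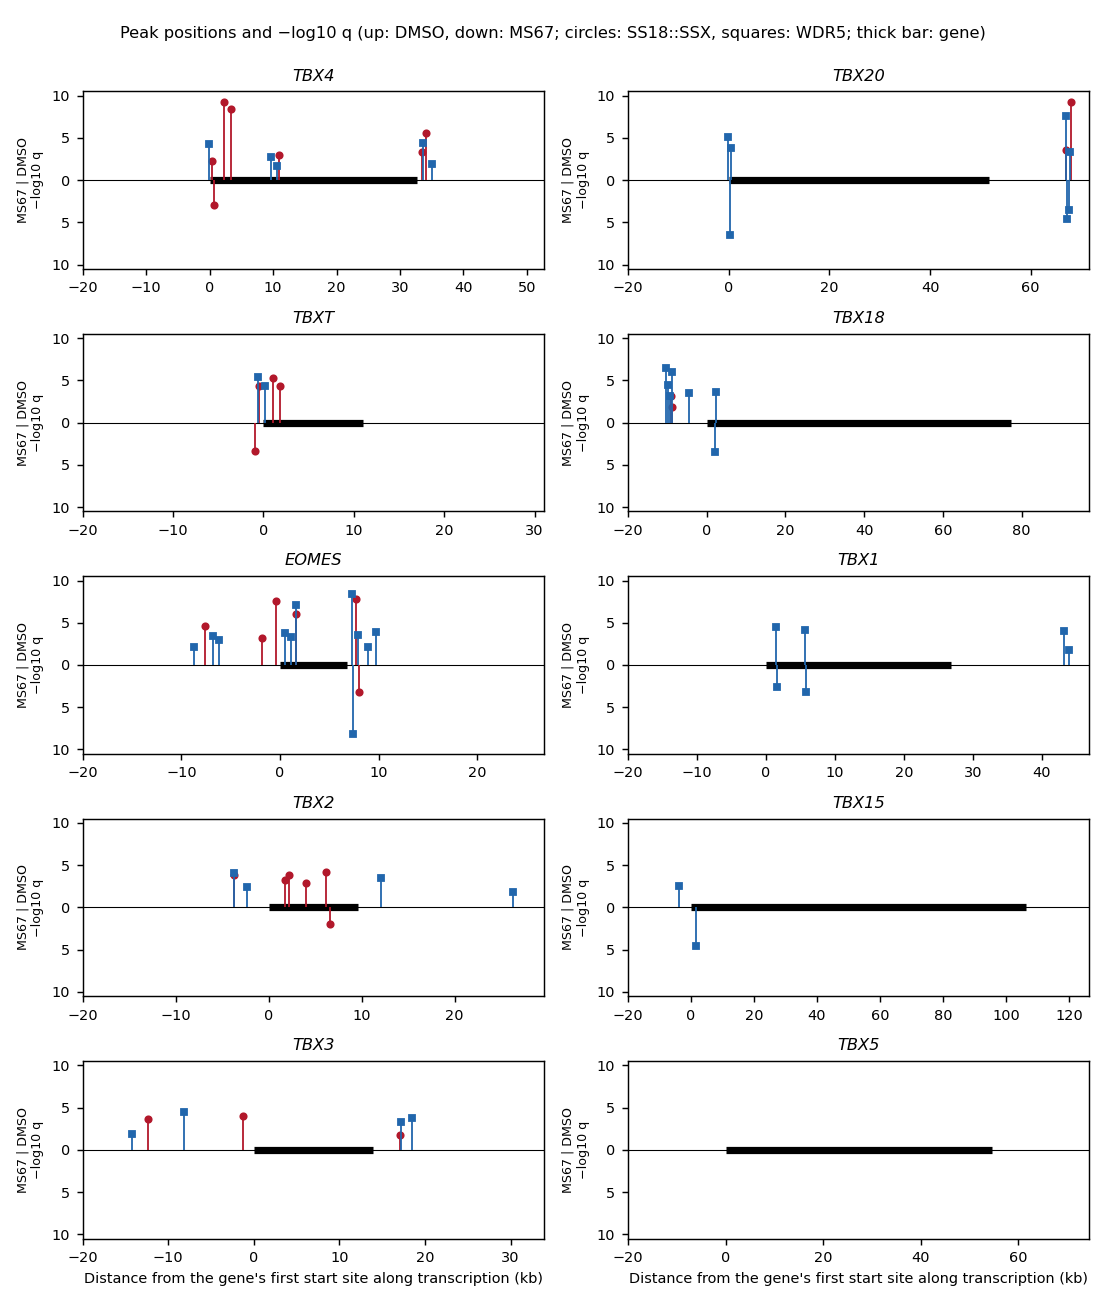
Position of each peak centre along transcription from the gene’s most upstream start site (x axis, kb) against its −log10 q (y axis, DMSO upward and MS67 downward), with SS18::SSX as circles, WDR5 as squares, and the gene body as a thick bar. The SS18::SSX peaks of *TBX4* reach 9.24 with DMSO and 2.94 with MS67, and at *TBX20* the circles stand beyond the 3′ end of the gene.

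*TBXT* encodes brachyury, the T-box protein of early mesoderm and notochord, and its peaks formed a tight block over the start of the gene. The 3 SS18::SSX peaks with DMSO ran from chr6:166166478-166167157 through chr6:166167375-166168017 to chr6:166168810-166169685 and covered 2199 bp, with a range of 3.47- to 3.72-fold enrichment over the local background and a −log10 q of 4.29 to 5.26. Each had between 24 and 26 fragments at its summit, so the 3 were alike in height. The innermost lay over a coding exon, the middle over an exon with untranslated sequence, and the outermost over the promoter and an exon of *LNCDAT*, a long noncoding RNA gene. WDR5 had 2 peaks with DMSO, at chr6:166168310-166168853 (3.86-fold, 18 fragments) and chr6:166169094-166169430 (4.2-fold, 20 fragments). Both were promoter peaks, and both overlapped the outermost SS18::SSX peak, while the 2 SS18::SSX peaks inside the gene had no WDR5 peak under them.

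*EOMES*, which acts in mesendoderm and in T and NK lymphocytes, had the most peaks of the 10 genes. Its 5 SS18::SSX peaks with DMSO spanned from beyond the 3′ end to 7581 bp upstream of the start site. The highest, at chr3:27714743-27715251, showed 5.66-fold enrichment with a −log10 q of 7.77 and lay 697 bp beyond the gene’s end. The promoter peak at chr3:27723070-27723264 reached 4.62-fold with 27 fragments, and that in an intron at chr3:27720977-27721305 reached 4.3-fold with 24 fragments. The other two SS18::SSX peaks lay farther upstream, with a −log10 q of 3.16 and 4.66. WDR5 had 10 peaks with DMSO that covered 2535 bp and carried between 10 and 23 fragments each. They fell into 3 groups, of which 4 lay beyond the gene’s end, toward and over the noncoding gene *LINC02084*, 3 inside the gene, and 3 upstream. The WDR5 peak of highest −log10 q over all 10 genes, 8.43, was the one at chr3:27715208-27715556, whose sequence is printed above.

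*TBX4* is needed for the hindlimb and lung. Its SS18::SSX peak at chr17:61454441-61454972 had the highest −log10 q of the 26, 9.24, with 3.94-fold enrichment and 41 fragments. Next to it, chr17:61455366-61456325 was the widest, with 960 bp, 40 fragments, and a −log10 q of 8.42, and its centre lay 600 bp from a start site inside the gene. These peaks, together with that at chr17:61452715-61452978 (2.59-fold, 24 fragments), made a block over introns between the upstream and the inner start sites. A weaker promoter peak at chr17:61463281-61463430 (15 fragments) stood at the start of the noncoding gene ENSG00000267137, and a pair of peaks stood 592 bp and 1154 bp beyond the 3′ end, with 19 and 23 fragments. WDR5 had 5 peaks at *TBX4* with DMSO, of 13 to 23 fragments. They lay at the upstream start site, near ENSG00000267137, and beyond the 3′ end, and none lay under the 3 SS18::SSX peaks of the intronic block.

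*TBX2* and *TBX3* encode repressors that act in heart, limb, and mammary development, and *TBX2* lies on chromosome 17 beside *TBX4*. At *TBX2*, 4 of the 5 SS18::SSX peaks with DMSO lay in the gene body and 1 lay 3.77 kb upstream. They had 31 to 35 fragments, the highest summits after the 2 tallest at *TBX4*, and yet only 2.49- to 2.86-fold enrichment, since the local background there was 10.2 to 12.8 fragments. The antisense gene *TBX2-AS1* covers the same bases, and the assay does not tell the strands apart. None of the 4 peaks in the gene body overlapped WDR5. The upstream peak did, at a WDR5 peak of 549 bp with 27 fragments, while the remaining WDR5 peaks lay at the noncoding genes ENSG00000289926 and *LINC02875* or farther downstream. At *TBX3*, the 3 SS18::SSX peaks were of 14 to 19 fragments and lay outside the gene body, at 1274 bp and 12406 bp upstream and 3080 bp beyond the 3′ end. Its 4 WDR5 peaks had 11 to 16 fragments, and 1 of them overlapped the SS18::SSX peak beyond the 3′ end.

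*TBX18* and *TBX20*, which act in the epicardium and in cardiac muscle, had SS18::SSX peaks only at a distance. The 2 at *TBX18* lay 8.8 kb and 9.16 kb upstream with 11 and 13 fragments, amid a cluster of 4 WDR5 peaks that ran from 8.87 kb to 10.4 kb upstream with 17 to 23 fragments. Both overlapped WDR5. The 2 SS18::SSX peaks in the *TBX20* window lay 15126 bp and 16198 bp beyond the gene’s end, at the start of the noncoding gene ENSG00000291133. The latter, chr7:35185985-35186231, had the highest fold of the 26, 8.04, from 15 fragments over a background of 0.989 fragments, and by position it belongs to that noncoding gene more than to *TBX20*. WDR5 overlapped both, with 9 and 14 fragments. At *TBX20* itself WDR5 had 2 promoter peaks, at chr7:35253383-35253955 (4.35-fold, 12 fragments) and chr7:35254190-35254418 (4.93-fold, 14 fragments). Both flank the start site from which the gene is read toward lower coordinates. The 250 bases before that start, from RefSeq on GRCh38.p14, minus strand, are shown because they run from between these peaks into the upstream one, with the match to GGGCGG, on the opposite strand, in capitals.
*TBX20* promoter, chr7:35254101-35254350: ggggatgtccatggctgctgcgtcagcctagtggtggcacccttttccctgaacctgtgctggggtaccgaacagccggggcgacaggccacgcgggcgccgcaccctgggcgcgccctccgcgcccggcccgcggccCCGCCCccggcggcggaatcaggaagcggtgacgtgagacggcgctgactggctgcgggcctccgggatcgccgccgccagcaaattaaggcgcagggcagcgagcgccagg
This stretch held 31 CpG and had 74.0% G and C.

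*TBX1*, *TBX5*, and *TBX15* lacked SS18::SSX peaks. *TBX1*, which shapes the pharyngeal arches, had 4 WDR5 peaks with DMSO. A promoter peak at chr22:19758028-19758381 (3.18-fold, 26 fragments) and one at chr22:19762232-19762415 (3.63-fold, 19 fragments) lay in the gene, and the other two lay in an intron of the neighbouring gene *GNB1L*. *TBX15*, a gene of skeletal development, had 1 WDR5 peak with DMSO, 3863 bp upstream, with 2.8-fold enrichment and 19 fragments. Absence from a list means that no window passed the calling threshold and not that no fragment was there.

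SS18::SSX and WDR5 overlapped with DMSO at 10 of the 26 SS18::SSX peaks, or 38.5% (95% Clopper-Pearson interval, 20.2 to 59.4), against 33.7% of the whole list. Seen from WDR5, 12 of the 40 peaks, or 30.0% (16.6 to 46.5), overlapped SS18::SSX, against 13.9% of the whole list. The share of SS18::SSX peaks was thus near that of the whole list, and the share of WDR5 peaks was above it. Per gene, all SS18::SSX peaks at *TBX18* (2 of 2) and in the *TBX20* window (2 of 2) overlapped WDR5, while 1 of 5 did at *TBX2*, 1 of 6 at *TBX4*, 1 of 3 at *TBXT*, 1 of 3 at *TBX3*, and 2 of 5 at *EOMES*. At *TBX4*, *TBXT*, and *EOMES*, which had the longest SS18::SSX coverage, most SS18::SSX peaks thus shared no base with a WDR5 peak. Some of these lay within 1 kb of one, so WDR5 was not absent from their surroundings. When a peak within 1 kb counted as shared, 61.5% of the 26 SS18::SSX peaks had WDR5. Peaks of 1 gene share a locus and are not replicates of one another.

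Local background differed between the loci. The background that the peak caller used, in multiples of the genome-wide coverage of its own library, had a median of 9.14 over the 26 SS18::SSX peaks with DMSO against 5.72 over the whole list, and of 9.54 over the 40 WDR5 peaks against 4.91. It was 18.8 to 23.6 at *TBX2*, 11.4 to 11.6 at *TBXT*, and 1.79 to 1.83 in the *TBX20* window. A high background lowers the fold for the same number of fragments, so the folds of *TBX2* and of the *TBX20* window cannot be read as levels of the same kind. The median fold of the 26 SS18::SSX peaks was 3.65, against 3.99 for the list, and that of the 40 WDR5 peaks was 3.7, against 4.61.

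With MS67, 23 of the 26 SS18::SSX peaks at the T-box genes had no overlapping peak (88.5%, 69.8 to 97.6), against 94.2% of the whole list. Those called again were 1 each at *TBX4*, *TBXT*, and *EOMES*. An additional MS67 peak stood in the *TBX2* gene, so 4 of the 7 genes with an SS18::SSX peak under DMSO had one under MS67, against 11.6% of all genes with a DMSO peak. The members with peaks had 3.71 of them per gene on average, against 2.58 over all genes with any, and the part of peak number in this share was not tested. At *TBX2* the MS67 peak overlapped none of the DMSO peaks, but it lay within 1 kb of that at chr17:61405968-61406147. For WDR5, 33 of the 40 peaks had no MS67 peak (82.5%, 67.2 to 92.7), against 75.0% of the whole list. An MS67 peak was at 5 of the 9 genes with a DMSO peak, against 73.6% of all such genes. One of the 5 was *TBX15*, where the MS67 peak did not overlap the DMSO peak. Both shares of peaks were close to those of the whole lists, and the interval of each included the whole list’s share. Of the 10 SS18::SSX peaks that overlapped WDR5, 8 had no MS67 peak (80.0%, 44.4 to 97.5). Of the 16 that did not overlap WDR5, 15 had no MS67 peak (93.8%, 69.8 to 99.8). The same split was not computed over the whole list, and no test was made between these groups, so no difference is drawn from them.

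Of the 4 SS18::SSX peaks of highest −log10 q at these genes, 3 were not called with MS67, and the *EOMES* peak of 7.77 was called again. At *TBX4*, the peaks with 41 and 40 fragments had no MS67 peak, while the one called again was the one with the lowest −log10 q of the gene, 2.23. At *EOMES* the promoter peak with 27 fragments was not called with MS67, nor was the *TBX20*-window peak of 8.04-fold. The SS18::SSX MS67 library was the deeper of the pair. When each DMSO summit and its background were multiplied by the ratio of coverages, 1.36, all 26 peaks passed the smallest −log10 p of the MS67 list, 5.04, as did 96.9% of the whole list. At this scale the *TBX4* peak of 41 fragments corresponded to 55.9 fragments and a −log10 p of 17.7, and the *EOMES* promoter peak to 36.8 fragments and 15.0. Such scaling takes the fragments outside peaks as the yardstick and not the spike-in, and it does not predict each call, since some WDR5 peaks that did not pass it were called with MS67.

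For WDR5 the same scaling gave another picture. At the coverage of the shallower MS67 library, with a ratio of 0.458, 7 of the 40 peaks passed the smallest −log10 p of the MS67 list, 4.06 (17.5%, 7.34 to 32.8), against 43.7% of the whole list. The 7 were 2 each at *TBX18*, *TBX20*, and *EOMES* and 1 at *TBXT*. Of them, 5 had no MS67 peak (71.4%, 29.0 to 96.3), against 62.2% of such peaks in the list. At the *TBX18* cluster the 2 that passed (22 and 23 fragments) had no MS67 peak, nor had *TBXT* at chr6:166169094-166169430. The other 33 WDR5 peaks, which include every one at *TBX1*, *TBX2*, *TBX3*, *TBX4*, and *TBX15*, did not pass, and 5 of them were called with MS67 all the same, at *TBX1*, *TBX18*, and *TBX20*. For those of the 33 without an MS67 peak, a lower WDR5 level and the lower coverage cannot be told apart. Stricter peaks had a −log10 q above 3 and a fold above 6. The paper applied these WDR5 cutoffs when it compared CUT&RUN peaks with those of CUT&Tag, a related assay. With them, the order of the treatments turned, with 1 WDR5 peak with DMSO and 3 with MS67 at the 10 genes.

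**Figure D3:**
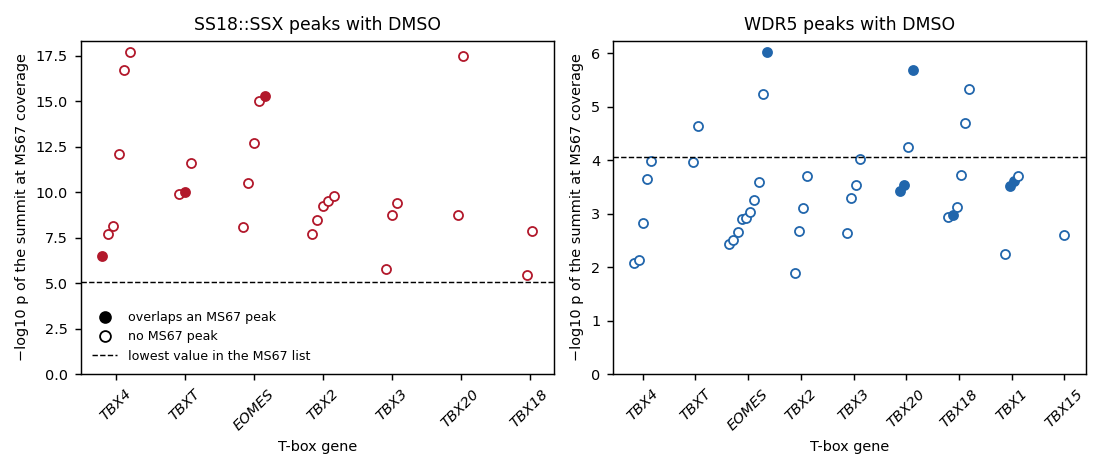
−log10 p of each DMSO peak at the T-box genes after its summit and background were scaled to the genome-wide coverage of the MS67 library (y axis), by gene (x axis), for SS18::SSX (left) and WDR5 (right), with filled points for peaks that overlap an MS67 peak and a dashed line at the lowest value of the MS67 list. All 26 SS18::SSX peaks lie above the line at 5.04, and 7 of the 40 WDR5 peaks lie above that at 4.06.

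At the sites called with both treatments, the summits were set against the genome-wide coverage of their own library. For SS18::SSX, the *TBX4* site was at 44.4 times the coverage with DMSO (24 fragments) and 50.2 times with MS67 (37 fragments), a ratio of 1.13. The *TBXT* site was at 44.4 times (24 fragments) and 42.1 times (31 fragments), a ratio of 0.948. The *EOMES* site was at 38.8 times (21 fragments) and 27.1 times (20 fragments), a ratio of 0.699. The median ratio over all 911 SS18::SSX pairs of the lists was also 0.699, so *EOMES* stood at the median and *TBX4* and *TBXT* above it. At *TBX4* and *EOMES* the summits of the 2 peaks lay 326 bp and 393 bp apart, so they were not the same point, whereas those at *TBXT* were 28 bp apart. The local background at the 3 sites was 1.15 to 1.16 times as high with MS67, against a median of 0.847 over the pairs.

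The 7 WDR5 sites called with both treatments all had a higher relative summit with MS67, from 1.09 to 2.18 times, with a median of 1.45 against 1.26 over the 9293 pairs of the lists. The *EOMES* site beyond the 3′ end stood at 62.6 times coverage with DMSO (23 fragments) and 101 times with MS67 (17 fragments). The *TBX20* promoter site stood at 32.6 times (12 fragments) and 71.2 times (12 fragments), and the 2 summits were 468 bp apart. Both sites in the *TBX1* gene were called again, at 1.26 and 1.38 times, with the summits 328 bp and 155 bp apart. The sites were included because they were called in the shallower library, which favors high summits there, and a change shared by the whole library does not appear in values taken relative to that library. The ratios therefore do not measure how much WDR5 was left.

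**Figure D4:**
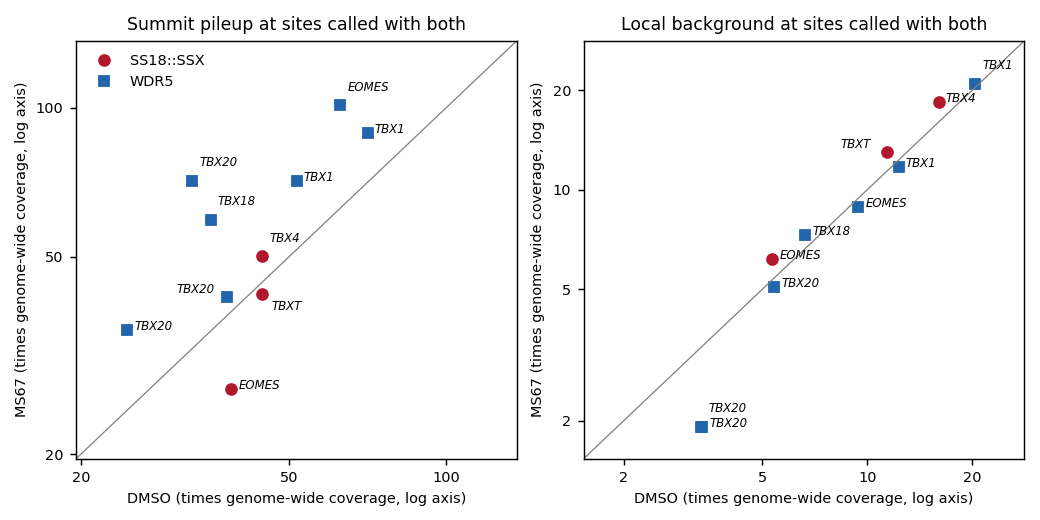
Summit pileup (left) and local background (right) of the 3 SS18::SSX sites (circles) and 7 WDR5 sites (squares) called with both treatments, each in multiples of the genome-wide coverage of its library, with DMSO on the x axis and MS67 on the y axis (log axes, grey line at equality). The WDR5 summits lie above the line, at 1.09 to 2.18 times, and the SS18::SSX summits between 0.699 and 1.13 times.

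Peaks listed with MS67 that overlapped no DMSO peak of the same target were 1 of 4 for SS18::SSX (25.0%, 0.631 to 80.6, against 26.9% of the list) and 1 of 8 for WDR5 (12.5%, 0.316 to 52.7, against 35.6%). The SS18::SSX one was at chr17:61406317-61406551 in *TBX2*, over a noncoding exon, with 2.37-fold enrichment and a −log10 q of 1.93. The DMSO peak at chr17:61405968-61406147 ended within 1 kb of this MS67 peak, so a separate site cannot be inferred. The 34 fragments of the MS67 peak correspond to 24.9 at the coverage of the DMSO library, below the 31 to 35 fragments of the 5 *TBX2* peaks there. The WDR5 one was at chr1:118987838-118987996 in *TBX15*, with 5.29-fold enrichment and 13 fragments. These correspond to 28.4 at DMSO coverage, beside 27 fragments at the highest WDR5 summit with DMSO at the 10 genes. The peak was picked by its call in the shallower library, and 13 fragments carry a wide counting error. No gain of WDR5 is therefore drawn from these values. The centre of the *TBX15* peak lay 426 bp from the nearest start site and 1639 bp inside the gene from the most upstream one. It lay over an exon with untranslated sequence and was not a promoter peak. No WDR5 peak was listed within this gene with DMSO.

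Beside other families of developmental regulators, the T-box genes were not set apart by SS18::SSX peaks under DMSO. The 9 *PAX* genes had such a peak at 8 and the 12 LIM homeobox genes at 10, against 7 of the 10 T-box genes and 37.1% of all genes. SS18::SSX promoter peaks were at 5 of the 9 *PAX* genes, 4 of the 12 LIM homeobox genes, and 3 of the 10 T-box genes. With MS67, an SS18::SSX peak was at 2 *PAX* genes, 2 LIM homeobox genes, and 4 T-box genes, against 4.52% of all genes. WDR5 peaks with MS67 were at 4 *PAX* genes, 5 LIM homeobox genes, and 5 T-box genes, against 60.1% of all genes. The lists are short and their genes differ in length, and no test was made between them. The genes outside the family most like *TBX4* in length covered over the 4 libraries were *DMRT1*, *ALPP*, and *MROH6*, at distances of 0.281, 0.317, and 0.337 on the log2 scale of covered bp.

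**Figure D5:**
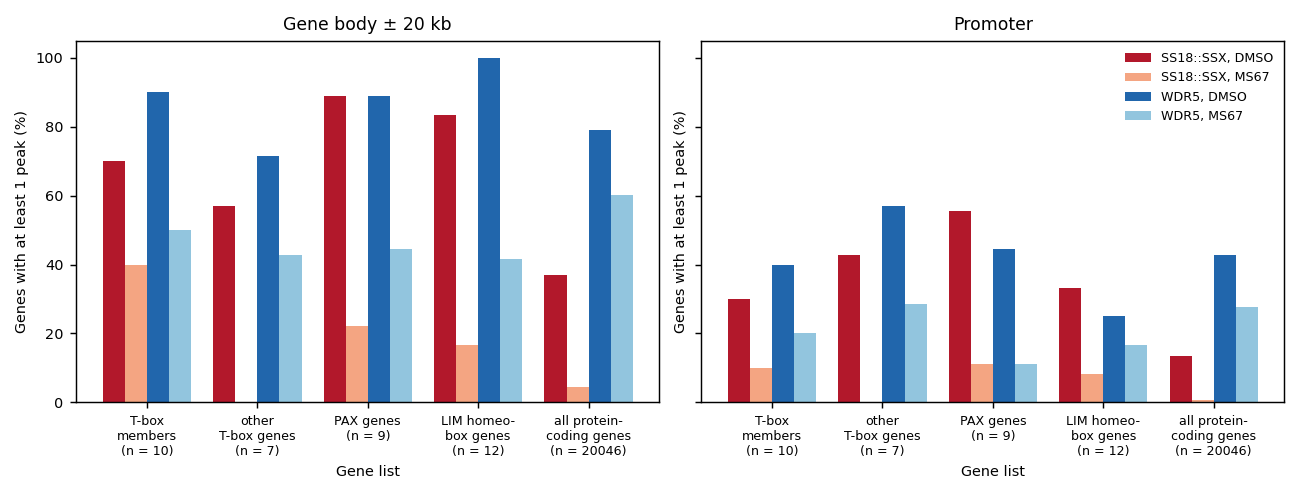
Share of genes with at least 1 peak (y axis, percent) in the gene body plus 20 kb on either side (left) and at the promoter (right) for each gene list (x axis), with 1 bar per library. In the left panel, SS18::SSX with DMSO is at 70.0% of the T-box members, 88.9% of the *PAX* genes, and 37.1% of all protein-coding genes.

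In sequence, the peaks with DMSO at the T-box genes held more CpG than the whole lists. In the 300 bp around the summit, the 26 SS18::SSX peaks had a median of 14.5 CpG against 9 over the whole list, at nearly the same G and C content (60.3% against 59.7%). The 40 WDR5 peaks had a median of 19.5 CpG against 9, with 60.0% and 57.3% G and C. With MS67, the median was 9 against 8 for the 4 SS18::SSX peaks, with 50.2% and 58.7% G and C. For the 8 WDR5 peaks with MS67 it was 24.5 CpG against 16. Neighbouring summit windows can overlap, and peaks of 1 gene share a locus. The motif of the T-box proteins themselves, AGGTGTGA on either strand, was in none of the 26 SS18::SSX and none of the 40 WDR5 windows of 300 bp with DMSO, against 1.86% and 1.44% of all such windows. Over the whole length of the peaks there was 1 match, in the SS18::SSX peak inside *TBXT* at chr6:166166478-166167157. CCAAT was in 9 of the 26 SS18::SSX windows (26.5% of all) and 11 of the 40 WDR5 windows (25.4% of all). GGGCGG was in 7 of the 26 (27.8% of all) and 16 of the 40 (30.8% of all), at *TBX2*, *TBX3*, *TBX18*, *TBX20*, *TBXT*, and *EOMES* for WDR5. CACGTG was in none of the 26 (6.88% of all) and in 1 of the 40 (6.1% of all), the *TBX20*-window site printed above. Of the 10 genes, 7 were matched by symbol to a RefSeq promoter of 300 bp, and *TBX2*, *TBX3*, and *TBX15* were not. Of these 7 promoters, that of *TBX20* held the most CpG, 38, and that of *TBX4* the fewest, 18. A match to these letters describes the sequence and does not show that a factor was bound.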

How the data were processed

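CUT&RUN for SS18::SSX and WDR5 was analysed in HSSY II cells, with 1 library for each target with DMSO and with MS67. The authors aligned reads to hg38 and to the mouse spike-in genome with Bowtie2, removed nonprimary alignments with Samtools and duplicates with Picard, and called peaks per library with MACS2. The submitters’ processing notes also name bedtools 2.28.0 and deepTools 3.3.0. MACS2 options and any control library are not given in the sources used here. The local background was therefore taken to come from the same library, so broad signal around a peak would count toward it. The deposited files give each peak’s position, fold (a ratio of summit to local background), −log10 p, and −log10 q. The score the authors deposited is 10 times the −log10 q and was not used.

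Summit fragments and background were recovered from fold (with a pseudocount of 1 fragment) and −log10 p under a Poisson model. Whole fragments fitted 100% of peaks within 0.001, and the step was checked on simulated data. Deduplicated fragments are still not certain to be independent molecules. Coverage was the lowest background of a list. Genes and start sites were those of GENCODE 44. Peaks overlapped when they shared at least 1 bp, and shares have 95% Clopper-Pearson intervals. Groups came from the sample labels.

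All 10 members were named, with the genes nearest to their peaks and the 3 genes outside the family closest to the member with the longest SS18::SSX coverage, by Euclidean distance of log2 (covered bp + 1). The other T-box, *PAX*, and LIM homeobox genes were comparison lists. Members and lists were chosen with earlier results of these data known. Alternatives were stricter peaks, merged peaks, other windows, overlaps, and promoters, and DMSO lists matched in size or coverage. Python 3.11.15 was used with numpy 2.4.6, scipy 1.17.1, pandas 2.3.3, pysam 0.24.0, and matplotlib 3.10.9.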

Additional observations from a re-analysis of the deposited data

How the results depend on the processing

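Of 46 alternatives over 11 results, 26 kept their value within the stated limit and 20 moved it. Stricter peaks were those past the cutoffs in the paper’s comparison of CUT&RUN with CUT&Tag. These were a −log10 q above 3, with a fold above 3 in the SS18::SSX lists and above 6 in the WDR5 lists. They left 17 SS18::SSX peaks with DMSO and 2 with MS67, and 1 WDR5 peak with DMSO and 3 with MS67. The WDR5 share without an MS67 peak then rested on that 1 peak and was 0%, the SS18::SSX share that overlapped WDR5 was 5.88%, and WDR5 promoter peaks were at 0 members with DMSO and 1 with MS67. The order of DMSO and MS67 was thus turned for WDR5 peaks (40 and 8 before, 1 and 3 after) and WDR5 promoters (4 and 2 before, 0 and 1 after). The WDR5 peaks at these genes had a median fold of 3.7 and a maximum of 6.75 with DMSO, and 5.29 and 7.23 with MS67. Merging peaks within 1 kb left 26 WDR5 peaks with DMSO. The gene body alone held 11 SS18::SSX peaks with DMSO and 2 with MS67, and 11 and 5 WDR5 peaks, with a WDR5 share without an MS67 peak of 63.6% and an SS18::SSX overlap with WDR5 of 9.09%. With an overlap of 50% of the DMSO peak, or with the DMSO list reduced to the size of the MS67 list (which left 3 peaks), 100% of the SS18::SSX peaks had no MS67 peak. When a peak within 1 kb counted as shared, 61.5% of the SS18::SSX peaks had WDR5. With promoters of 1000 bp on either side, an SS18::SSX promoter peak was at 2 members and a WDR5 one at 4 with MS67. No paired analysis was possible because each target and treatment had 1 library, and for the same reason no library could be left out. Where a setting does not itself force a move, the cause of the move was not tested. The lower coverage of the WDR5 MS67 library limits every statement on WDR5 loss.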

Other observations

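The other 7 T-box genes had SS18::SSX peaks with DMSO at 4 (*TBR1*, *TBX6*, *TBX10*, and *TBX21*), with promoter peaks at *TBR1*, *TBX10*, and *TBX21*, and no SS18::SSX peak with MS67 at any of the 7. *TBR1* and *TBX21*, the closest relatives of *EOMES*, which act in cortical neurons and in T helper cells, had 3 SS18::SSX peaks each, covering 906 bp and 1130 bp. At *TBX21* the promoter peak chr17:47732441-47733233 showed 5.27-fold enrichment with 15 fragments, and it overlapped a WDR5 peak of 1068 bp with 7.74-fold enrichment and a −log10 q of 10.4. That WDR5 peak corresponded to a −log10 p of 7.41 at MS67 coverage, above the smallest value of the MS67 list, 4.06, and no MS67 peak was listed there. At *TBR1*, WDR5 peaks reached a −log10 q of 9.99 and 9.69 with DMSO, and none was listed with MS67.

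*TBX6*, which acts in paraxial mesoderm, kept its WDR5 promoter peak. It had 25 fragments with DMSO (4.6-fold) and 22 with MS67 (8.13-fold), with the highest −log10 q of any WDR5 MS67 peak in the T-box windows, 11.3, chosen here after its value was seen. Its 2 SS18::SSX peaks lay at the neighbouring genes *ALDOA* and *YPEL3*. *MGA*, a partner of MAX that has a T-box, had 8 WDR5 peaks with DMSO and 4 with MS67, and no SS18::SSX peak. *TBX19* and *TBX22* had no peak in any list.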
